A study of Mus musculus with 7 samples.

Results

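The carbonic anhydrase genes described here are Car2, Car3, Car4, Car5b, Car8, Car9, Car12, Car13, Car14 and Car15. They were taken by symbol from a table of transcript levels in mouse kidney cortex, in which they are 10 of 22053 listed protein-coding genes. Cortex RNA of 4 BPS-TA kidneys was compared with that of 3 WT kidneys. The columns of the BPS-TA kidneys are named TC (read as triple cross) with the numbers 7, 8, 11 and 12, and those of the WT kidneys WT-5, WT-6 and WT-7. BPS-TA mice carry 3 transgenes (GGT-TTA, GGT-HIF1A_M3 and BPS-TRE-CAS9n). The first makes the tetracycline transactivator tTA and the second, known as TRACK, a human HIF1A mutant that is constitutively active, both under a truncated ggt promoter. The third holds a Cas9 nickase that tTA switches on in the absence of doxycycline, with paired guides against Bap1, Pbrm1 and Setd2. WT mice carried none of them. Both groups were C57BL/6 mice on regular chow, and the labels give an age of 10 with the unit written as both months and weeks.

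The ggt promoter is active in the proximal tubule, so the other cells of the cortex were not the intended site of the transgenes. Kidneys with TRACK alone were not analysed here, so the effects of the mutant HIF1A, the nickase and the guides cannot be told apart. The study used more WT kidneys than the 3 analysed here. Which mouse each column came from is not known, so p-values measure only the spread between these kidneys and would be too small if kidneys shared a mouse. In bulk RNA, fewer cells of a type and less RNA per cell cannot be told apart.

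Carbonic anhydrases interconvert CO2 and water with bicarbonate and protons. In the kidney the cytosolic enzyme supplies protons for secretion and bicarbonate for return to the blood, and membrane-bound enzymes with their active site outside the cell let the proximal tubule reclaim filtered bicarbonate. Car9 is a long-known target of hypoxia-inducible factors and its human counterpart marks clear cell renal cell carcinoma. Other members act in mitochondria, and a few family members, Car8 among them, have lost the catalytic activity.

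Hypoxia-inducible factors bind DNA at a short core, written ACGTG or GCGTG. RefSeq promoter windows (GRCm38.p6, from 250 bases before to 50 after the gene's start) were found for 6 of the 10 members, Car4, Car5b, Car9, Car12, Car14 and Car15. The core was searched on both strands, so that it can also read CACGT or CACGC. It was present in the windows of 4 of these 6 members, against 43.8% of all 32851 windows. The 100 bases before the start are shown for Car9, the member that rose most, for Car14, whose window holds the same letters, closer to the start, and for Car5b, with the most matches. Capitals mark the core on either strand, and each sequence runs 5′ to 3′ along its gene.
Car9: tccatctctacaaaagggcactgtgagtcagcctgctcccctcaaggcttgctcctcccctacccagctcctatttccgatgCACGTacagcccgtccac
Car14: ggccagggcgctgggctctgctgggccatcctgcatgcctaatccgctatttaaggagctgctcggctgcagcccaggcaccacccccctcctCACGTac
Car5b: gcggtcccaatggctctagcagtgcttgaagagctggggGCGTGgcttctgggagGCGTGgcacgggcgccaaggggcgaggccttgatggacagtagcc

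The stretch of Car9 is chr4:43506926-43507025 on the plus strand, that of Car14 chr3:95904686-95904785 on the minus strand and that of Car5b chrX:164028011-164028110 on the minus strand, all in GRCm38.p6. In Car9 the core began at position -18 relative to the start and in Car14 at position -7, in both as CACGT. The letters ACGTG or CACGT occurred in 19.6% of all windows. The window of Car5b held 5 matches to GCGTG or CACGC, at positions -194, -175, -130, -61 and -45, a core found in 32.4% of all windows. Car4 had 1 match to CACGT at position 3 after the start, and the windows of Car12 and Car15 held none. A match is a string of letters only, and Car9 and Car14, which share it, had log2 fold changes of 2.50 and -0.25.

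The values name no unit and were read as FPKM (fragments per kilobase of transcript, scaled to sequencing depth). This unit allows levels of different genes to be compared, so such comparisons rest on this reading. All 10 members reached 1 FPKM in 3 or more kidneys, the filter that 12036 genes in all passed. In limma on log2(FPKM + 1), with a Benjamini-Hochberg adjusted p under 0.05 as the threshold, 6 of the 10 members were higher in BPS-TA kidneys, where 28.5% of all tested genes were. Lower was 1 member, Car4, where 6.56% of all genes were. For the same 6 members all BPS-TA values exceeded all WT values (35% of all genes), and they were below all WT values for 0 members (8.87% of all genes), while the groups overlapped for the other 4. The median log2 fold change of the members was 0.37, against 0.12 over all tested genes. Increases outnumbered decreases over the whole table, so that small increases depend on the scale. With each kidney centred on its own median, 3 members were higher (Car9, Car3 and Car15) and 3 lower (Car4, Car12 and Car14). On that scale 1515 of all 12036 genes were higher and 2480 lower. After quantile normalization 4 members were higher (Car9, Car3, Car15 and Car2) and 0 lower, with 2 lower at an unadjusted p under 0.05. Of all genes 1416 were then higher and 1724 lower.

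**Figure D1:**
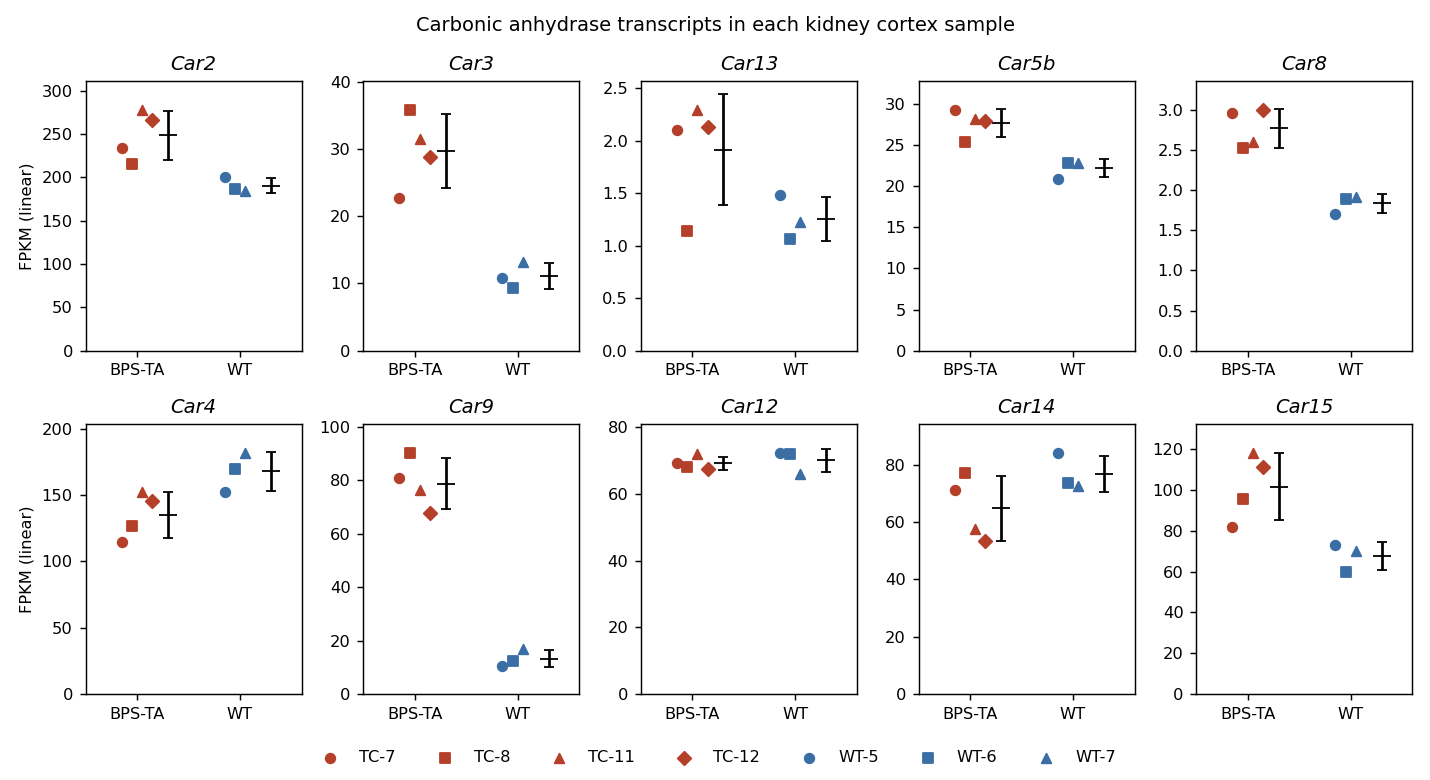
FPKM of the 10 carbonic anhydrase genes in each kidney, with BPS-TA kidneys at left and WT kidneys at right of each panel, and the mean ± SD in black (n = 4 and n = 3). The groups of Car9 and Car3 lie far apart, those of Car2, Car5b, Car8 and Car15 lie close without overlap, and those of Car4, Car12, Car13 and Car14 overlap.

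The kidneys differed along other axes too. The groups lay apart on the first principal component of the tested genes, with 65.3% of the variance, and on the second, with 12.9%, the pair TC-7 and TC-8 lay apart from the pair TC-11 and TC-12. Summed FPKM was 1473813 to 1657734 in BPS-TA and 1771791 to 1808843 in WT kidneys, and the glutathione peroxidase gene Gpx3 made up 55.5% to 58.2% of these sums in BPS-TA and 60.2% to 61.7% in WT kidneys. The number of reads is unknown. Proximal tubule markers, which give the cortex its identity, were present in every kidney, but 9 of 14 fell and 1 rose in BPS-TA kidneys. Transcripts of the guides' targets Bap1, Pbrm1 and Setd2 were not called (adjusted p = 0.780, 0.950 and 0.956), and the mutant HIF1A is not among the mouse genes counted. All 14 HIF-inducible genes of a list without carbonic anhydrases rose, with a median log2 fold change of 1.44.

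Car9 (ENSMUSG00000028463) encodes a transmembrane carbonic anhydrase whose active site faces the outside of the cell. Its mRNA was the most increased of the family. It stood at 81.0, 90.2, 76.3 and 67.7 FPKM in the BPS-TA kidneys, given in the order TC-7, TC-8, TC-11, TC-12 here and for every other gene, against 10.4, 12.4 and 17.0 FPKM in the WT kidneys (WT-5, WT-6, WT-7). All 4 BPS-TA kidneys were high and far from the WT range, and among them TC-8 was highest and TC-12 lowest. The means were 78.8 ± 9.41 FPKM (SD, n = 4) in BPS-TA and 13.3 ± 3.35 FPKM (SD, n = 3) in WT kidneys, a ratio of 5.94. The log2 fold change was 2.50 (standard error 0.154, adjusted p = 3.13e-05) and ran from 2.36 to 2.68 over left-out kidneys. The call was kept in all 16 alternatives. In the annotation 9.29% of the exon bases of Car9 are shared with Gm12454 on the opposite strand, and the sources used here do not say whether counting used the strand.

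The genes whose pattern over the 7 kidneys was most like that of Car9 were sought by the mean absolute difference of log2(FPKM + 1), with each gene set relative to its WT mean. Stc2, which encodes the secreted glycoprotein stanniocalcin 2, was closest at a mean difference of 0.090, followed by the hexokinase gene Hk2 (0.13), Fam162a (0.14), the pyruvate dehydrogenase kinase gene Pdk1 (0.17) and the collagen lysyl hydroxylase gene Plod2 (0.20). Pdk1 stood at 116, 127, 97.5 and 86.4 FPKM in BPS-TA kidneys, against 13.5, 14.0 and 18.2 FPKM in WT kidneys. Like Car9, Pdk1 was highest in TC-8, lowest of the BPS-TA kidneys in TC-12 and highest of the WT kidneys in WT-7. Stc2 followed the same order at a lower level, with 7.66, 9.15, 7.20 and 5.89 FPKM in BPS-TA kidneys and 0.400, 0.436 and 0.609 FPKM in WT kidneys. The other 3 departed from this order, with Hk2 lowest of the BPS-TA kidneys in TC-11, Fam162a highest of the WT kidneys in WT-6, and Plod2 highest in TC-7 and in WT-5. These genes were chosen for their likeness to Car9, so the likeness is a description. Since the scale adds 1 to each value, it lowers the change of genes as low as Stc2 and Hk2, whose ratios of means were 15.5 and 23.0.

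**Figure D2:**
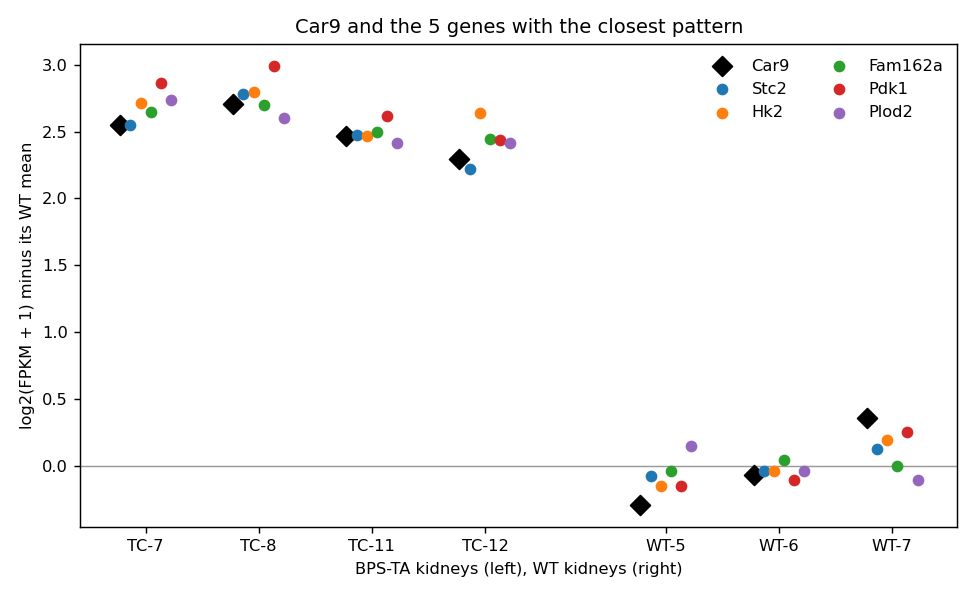
Car9 (black diamonds) and the 5 genes closest to it in pattern, as log2(FPKM + 1) minus the gene's WT mean in each BPS-TA kidney (left) and WT kidney (right). All 6 genes lie above 2 in every BPS-TA kidney, and the WT kidneys lie near 0.

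Car3 (ENSMUSG00000027559) encodes a cytosolic isoform with little hydratase activity that is abundant in muscle and fat. It was the next most increased member. Its transcript stood at 22.7, 35.8, 31.5 and 28.8 FPKM in the BPS-TA kidneys, against 10.8, 9.31 and 13.2 FPKM in the WT kidneys. The lowest BPS-TA kidney, TC-7, still lay well above the highest WT kidney, WT-7. The means of 29.7 ± 5.46 FPKM (SD, n = 4) in BPS-TA and 11.1 ± 1.97 FPKM (SD, n = 3) in WT kidneys gave a ratio of 2.68. On the log2 scale the change was 1.34 with a standard error of 0.158 (adjusted p = 7.56e-04), and it was called in all 16 alternatives. Most markers of fat and muscle were at or near 0 in all kidneys, with exceptions. Adipoq, the adiponectin gene, did not exceed 0.0805 FPKM, and 8 of 10 adipocyte markers were below 1 FPKM in every kidney. The other 2, Pck1 and Fabp4, which proximal tubule and endothelial cells also express, made up nearly all of the adipocyte sum (744 to 1006 FPKM in BPS-TA and 982 to 1269 FPKM in WT kidneys). Of these Fabp4 rose, at 65.6 to 71.8 FPKM in BPS-TA and 43.3 to 56.6 FPKM in WT kidneys (log2 fold change 0.49, adjusted p = 0.00500), and its part in the result for Car3 was not tested. Of 8 skeletal muscle markers with a value 7 were below 1 FPKM in every kidney, and Ckm, the muscle creatine kinase gene, did not exceed 0.0388 FPKM. The exception, Mylpf, a myosin light chain gene, was at most 6.45 FPKM in BPS-TA and 5.14 FPKM in WT kidneys. It was not called (adjusted p = 0.801). Among the 7 low ones, Mb, Actn3 and Myh1 were higher in every BPS-TA kidney than in any WT kidney. Mb was at most 0.518 FPKM in BPS-TA and 0.0261 FPKM in WT kidneys, and Actn3 at most 0.399 and 0.165 FPKM. Ckm, Tnnc2 and Tnnt3 overlapped between the groups, and Myh4 was 0 throughout. These 7 were below the filter, and the part of muscle in the result for Car3 was not tested.

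Car2 (ENSMUSG00000027562), the fast cytosolic enzyme of proximal tubule and intercalated cells, had the highest level of the family in all 7 kidneys. It stood at 234, 215, 278 and 266 FPKM in the BPS-TA kidneys, against 200, 187 and 184 FPKM in the WT kidneys. The groups did not overlap, but TC-8 and WT-5 lay close, and TC-11 and TC-12 were higher than TC-7 and TC-8. The means of 248 ± 28.7 FPKM (SD, n = 4) in BPS-TA and 190.3 ± 8.55 FPKM (SD, n = 3) in WT kidneys differed by 0.38 on the log2 scale (standard error 0.0898, adjusted p = 0.0142). The call was lost with median centring (0.20, adjusted p = 0.129), without WT-6 or WT-7 (adjusted p = 0.0510 and 0.0540) and with TC-7 and TC-8 as the only BPS-TA kidneys (adjusted p = 0.0517). Markers of several other cell types were also higher. All 6 tested markers of type A intercalated cells rose (summed levels over the 7 listed, 150.3 to 172 FPKM in BPS-TA and 105 to 114 FPKM in WT kidneys), whereas of 4 type B markers 0 rose and 1 fell (42.6 to 51.9 FPKM in BPS-TA and 53.5 to 63.4 FPKM in WT kidneys). The type A list is not exclusive, since Slc4a1 is also a red cell gene and Atp6v1b1 encodes a proton pump subunit of intercalated cells in general. Atp6v1b1 alone stood at 61.5 to 72.7 FPKM in BPS-TA and 54.9 to 57.2 FPKM in WT kidneys. Markers of some neighbouring tubule cells rose as well, 6 of 7 for principal cells (559 to 699.8 FPKM in BPS-TA and 408 to 465 FPKM in WT kidneys) and 5 of 6 for the thick ascending limb (3472 to 4087 FPKM in BPS-TA and 2146 to 2372 FPKM in WT kidneys), with median log2 fold changes of 0.50 and 0.54 beside 0.51 for type A intercalated cells. For the distal convoluted tubule 2 of 5 markers rose and 3 were not called (median 0.36). Their summed levels overlapped, at 564 to 675 FPKM in BPS-TA and 444 to 579 FPKM in WT kidneys. All 5 tested erythroid genes rose (summed levels over the 9 with a value, 471 to 586 FPKM in BPS-TA and 256 to 323 FPKM in WT kidneys), while the red cell isoform Car1 did not exceed 0.196 FPKM. Their part in the result for Car2 was not tested.

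Car13 (ENSMUSG00000027555), a further cytosolic isoform and a neighbour of Car2 and Car3 on chromosome 3, was the least abundant member. It stood at 2.11, 1.14, 2.30 and 2.13 FPKM in the BPS-TA kidneys, against 1.48, 1.06 and 1.23 FPKM in the WT kidneys. TC-8 lay within the WT range and the other BPS-TA kidneys above it. The log2 fold change of 0.35 (95% interval -0.0087 to 0.72) did not pass the test (adjusted p = 0.115). It did so without TC-8 (0.50, adjusted p = 0.00753) and with TC-11 and TC-12 as the only BPS-TA kidneys (0.51, adjusted p = 0.0158). The change was smaller with quantile normalization (0.049, adjusted p = 0.841) and median centring (0.18, adjusted p = 0.426).

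Car5b (ENSMUSG00000031373), which encodes the mitochondrial enzyme, was modestly increased. It stood at 29.3, 25.3, 28.2 and 27.9 FPKM in the BPS-TA kidneys, against 20.9, 22.8 and 22.9 FPKM in the WT kidneys. All BPS-TA kidneys were above the WT kidneys, with TC-8 closest to them. The log2 fold change was 0.31 (standard error 0.0646, adjusted p = 0.00865). The call was lost with quantile normalization (0.20, adjusted p = 0.0704) and median centring (0.13, adjusted p = 0.211), and with TC-7 and TC-8 as the only BPS-TA kidneys (adjusted p = 0.0644).

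Car8 (ENSMUSG00000041261) encodes a carbonic anhydrase-related protein without catalytic activity, known in neurons as a partner of the IP3 receptor. Its level in cortex was low, at 2.96, 2.53, 2.60 and 3.0 FPKM in the BPS-TA kidneys, against 1.71, 1.89 and 1.91 FPKM in the WT kidneys. The groups did not overlap, and the ratio of means was 1.51. On the log2 scale the change was 0.41 (standard error 0.0793, adjusted p = 0.00602), and its call was lost with quantile normalization (0.12, adjusted p = 0.298) and with median centring (0.23, adjusted p = 0.0603).

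Car15 (ENSMUSG00000090236) encodes a membrane-anchored enzyme that faces the outside of the cell and whose human counterpart is a pseudogene. It stood at 81.6, 95.8, 118 and 111 FPKM in the BPS-TA kidneys, against 72.8, 59.6 and 70.3 FPKM in the WT kidneys. TC-11 and TC-12 were highest and TC-7 was nearest to the WT kidneys. The means of 102 ± 16.3 FPKM (SD, n = 4) in BPS-TA and 67.6 ± 7.03 FPKM (SD, n = 3) in WT kidneys differed by 0.57 on the log2 scale (standard error 0.130, adjusted p = 0.0114). With TC-7 and TC-8 as the only BPS-TA kidneys it was 0.39 (adjusted p = 0.0520). The value is uncertain because 65.7% of the exon bases of Car15 are shared with Gm20518 on the same strand, a gene that the table lists at 0.868 to 2.06 FPKM in BPS-TA and 0.668 to 1.80 FPKM in WT kidneys.

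Car4 (ENSMUSG00000000805), the membrane-anchored enzyme of the proximal tubule surface that is also found on capillaries, was the only member called lower. It stood at 114, 126, 152 and 146 FPKM in the BPS-TA kidneys, against 152, 169.6 and 181 FPKM in the WT kidneys. TC-7 and TC-8 were lowest, whereas TC-11 reached the level of WT-5, so the groups overlapped. The means of 135 ± 17.5 FPKM (SD, n = 4) in BPS-TA and 168 ± 14.8 FPKM (SD, n = 3) in WT kidneys differed by -0.32 on the log2 scale (standard error 0.107, adjusted p = 0.0491). The direction held in all 16 alternatives, but the call was lost in 10 of them (adjusted p of 0.0136 to 0.158 over all 16), among them those that left out TC-7, TC-8, TC-12, WT-6 or WT-7. Summed levels of the 14 proximal tubule markers, with 9 called lower and 1 higher, were 46752 to 53901 FPKM in BPS-TA and 59154 to 62683 FPKM in WT kidneys. Kap, an androgen-regulated gene of the proximal tubule, made up 85.2% to 86.7% of this sum in BPS-TA and 84.0% to 84.6% in WT kidneys, and without it the sums were 6231 to 7830 FPKM in BPS-TA and 9292 to 10012 FPKM in WT kidneys. All 8 endothelial markers rose, with summed levels of 241 to 282 FPKM in BPS-TA and 157 to 176 FPKM in WT kidneys. Their part in the result for Car4 was not tested.

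Car14 (ENSMUSG00000038526), a transmembrane enzyme of the proximal tubule, split the BPS-TA kidneys. It stood at 71.3, 77.1, 57.6 and 53.2 FPKM in the BPS-TA kidneys, against 84.1, 73.7 and 72.5 FPKM in the WT kidneys. TC-11 and TC-12 lay well below every WT kidney. TC-7 lay just below the lowest of them, WT-7, and TC-8 lay within the WT range. The log2 fold change of -0.25 (95% interval -0.55 to 0.043) did not pass the test (adjusted p = 0.160). It passed with median centring (-0.43, adjusted p = 0.0325) and with TC-11 and TC-12 as the only BPS-TA kidneys (-0.46, adjusted p = 0.00749), but not with TC-7 and TC-8 (-0.047, adjusted p = 0.719). The difference between the pairs of BPS-TA kidneys was not tested, since the pairs were seen in the data. For Car14, 17.5% of the exon bases are shared with Aph1a on the opposite strand, which stood at 4.65 ± 0.108 FPKM (SD, n = 4) in BPS-TA and 4.74 ± 0.185 FPKM (SD, n = 3) in WT kidneys.

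Car12 (ENSMUSG00000032373), a transmembrane enzyme and in many cell lines a hypoxia-inducible one, was nearly level. It stood at 69.2, 68.0, 72.0 and 67.5 FPKM in the BPS-TA kidneys, against 72.2, 72.0 and 66.0 FPKM in the WT kidneys. The WT range enclosed all BPS-TA kidneys. The log2 fold change was -0.018, with a 95% interval of -0.14 to 0.10 and an adjusted p of 0.814, an interval far below the change of Car9. With median centring it was -0.19 (adjusted p = 0.0238).

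**Figure D3:**
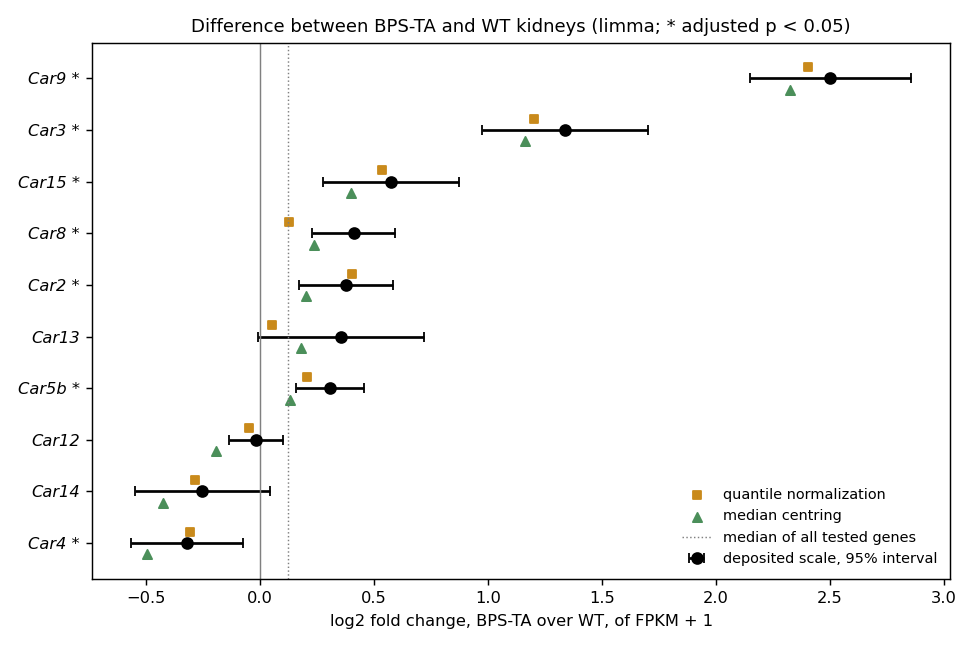
Log2 fold change of FPKM + 1 (BPS-TA over WT) of the 10 members with 95% intervals from limma (black), and the same value after quantile normalization (squares) and median centring (triangles). The dotted line is the median of all tested genes at 0.12. Car9 and Car3 stay above 1 on each scale, and Car12 stays near 0 or below.

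The make-up of the family's transcripts differed between the groups. In order of mean level the members in BPS-TA kidneys were Car2, Car4, Car15, Car9, Car12, Car14, Car3, Car5b, Car8 and Car13, and in WT kidneys Car2, Car4, Car14, Car12, Car15, Car5b, Car9, Car3, Car8 and Car13. Ranges of neighbours overlapped in BPS-TA kidneys from Car4 through Car14 and between Car3 and Car5b, and in WT kidneys between Car12 and Car15 and between Car9 and Car3. Car9 ranked 4th of 15 family genes in every BPS-TA kidney and 7th or 8th in WT kidneys. It made up 8.69% to 12.1% of the family's summed FPKM in BPS-TA and 1.65% to 2.67% in WT kidneys. Car4 made up 16.0% to 18.7% in BPS-TA and 24.1% to 28.5% in WT kidneys, and Car14 6.84% to 10.3% in BPS-TA and 11.4% to 13.3% in WT kidneys. The share of Car2 overlapped between the groups, at 28.9% to 34.2% in BPS-TA and 28.9% to 31.7% in WT kidneys. These shares do not depend on a factor that scales all genes of a kidney.

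**Figure D4:**
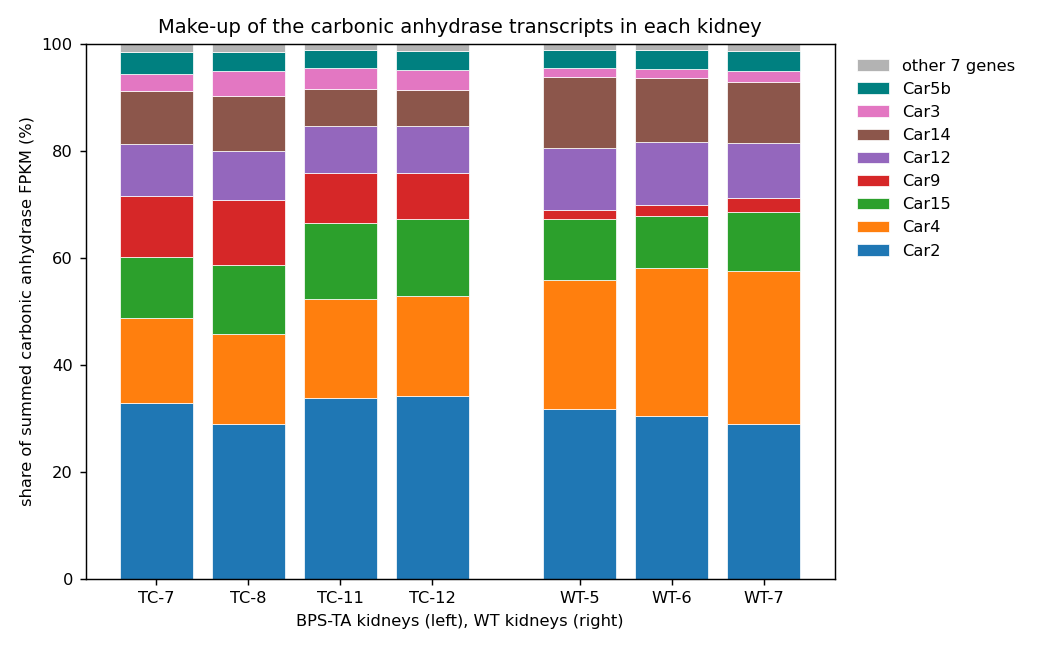
Share of each gene in the summed FPKM of the 15 carbonic anhydrase genes with a value, for the BPS-TA kidneys (left) and the WT kidneys (right). The band of Car9 is wider in every BPS-TA kidney (8.69% to 12.1%, against 1.65% to 2.67% in WT kidneys), and that of Car4 is narrower.

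Grouped by the place of the protein in the cell, the 5 cytosolic genes (Car1, Car2, Car3, Car7 and Car13) summed to 283 ± 29.0 FPKM (SD, n = 4) in BPS-TA and 204 ± 8.54 FPKM (SD, n = 3) in WT kidneys, a ratio of 1.38. Most of both sums was Car2, with means of 248 FPKM in BPS-TA and 190.3 FPKM in WT kidneys, whose call was lost with median centring. The 5 membrane-bound genes (Car4, Car9, Car12, Car14 and Car15) summed to 449 ± 24.8 FPKM (SD, n = 4) in BPS-TA and 395 ± 10.5 FPKM (SD, n = 3) in WT kidneys, a ratio of 1.14. Within the membrane-bound genes, the gains of Car9 and Car15 stood beside the lower Car4. The whole family summed to 765 ± 46.7 FPKM (SD, n = 4) in BPS-TA and 627 ± 12.5 FPKM (SD, n = 3) in WT kidneys. Of the family genes outside the 10, Car7, a cytosolic isoform, was called higher at 2.10, 2.48, 2.68 and 2.75 FPKM in BPS-TA kidneys, against 1.94, 1.67 and 1.72 FPKM in WT kidneys (log2 fold change 0.33, adjusted p = 0.0231). Car11, a catalytically inactive relative, varied widely within both groups and was not called (adjusted p = 0.859). Car1, Car6 and Car10 were below the filter.

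Carbonic anhydrases work with transporters that carry bicarbonate, protons and ammonia. Of 48 genes on 4 lists of such proteins 39 were tested, of which 15 rose (38.5%) and 3 fell (7.69%). The shares over all genes were 28.5% and 6.56%. With median centring 7 rose and 8 fell, where 1515 of all 12036 genes rose and 2480 fell. Without WT-6 or WT-7 the increases numbered 8 and 9, where those over all genes numbered 2386 and 2276.

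Among the bicarbonate transporters 5 of 12 tested rose and 1 fell (median log2 fold change 0.28). Slc26a6, an apical anion exchanger, stood at 8.06, 8.63, 13.5 and 14.7 FPKM in BPS-TA kidneys, against 6.14, 5.81 and 6.07 FPKM in WT kidneys (log2 fold change 0.76, adjusted p = 0.0187). Its increase was larger in TC-11 and TC-12. Slc4a1, the anion exchanger of type A intercalated and red cells, stood at 21.1, 22.3, 18.6 and 22.5 FPKM in BPS-TA kidneys, against 15.2, 11.9 and 10.8 FPKM in WT kidneys (0.71, adjusted p = 0.00290). It is also on the intercalated cell list, whose other tested members rose as well. Slc26a1, a sulfate and anion exchanger, was lower (-0.41, adjusted p = 0.0159). Slc4a4, through which the proximal tubule returns bicarbonate to the blood, was at 155 ± 26.6 FPKM (SD, n = 4) in BPS-TA and 157 ± 1.77 FPKM (SD, n = 3) in WT kidneys, with a log2 fold change of -0.041 (95% interval -0.32 to 0.23).

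Of 13 proton transporter genes 7 rose and 1 fell (median log2 fold change 0.35). Slc16a3, which exports lactate with a proton, stood at 39.6, 43.0, 32.6 and 33.6 FPKM in BPS-TA kidneys, against 0.446, 0.274 and 0.556 FPKM in WT kidneys (log2 fold change 4.74, adjusted p = 2.31e-07). Its order among the BPS-TA kidneys put TC-8 highest, as for Car9, but TC-11 lowest, where Car9 was lowest in TC-12. Bsg, the chaperone of such exporters, was at 593 ± 47.6 FPKM (SD, n = 4) in BPS-TA and 315 ± 5.42 FPKM (SD, n = 3) in WT kidneys (0.91, adjusted p = 6.83e-05). Slc9a3r1, a scaffold of the apical sodium-proton exchanger, was lower (-0.32, adjusted p = 0.00365).

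Of 9 tested genes of ammonia formation and transport 2 rose and 1 fell (median log2 fold change 0.023). The ammonia channel gene Rhbg was higher (0.32, adjusted p = 0.0266). Glul, the glutamine synthetase that binds ammonia, was lower, at 249, 279, 213 and 201 FPKM in BPS-TA kidneys, against 368, 307 and 338 FPKM in WT kidneys (-0.52, adjusted p = 0.0107). Of 5 subunit genes of the vacuolar proton pump of intercalated cells 1 rose, Atp6v1b1 (0.28, adjusted p = 0.0141), and 0 fell. Atp6v0a4, which was not called, had a log2 fold change of -0.12 (95% interval -0.25 to 0.0089).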

How the data were processed

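Total RNA of kidney cortex pieces was sequenced by the authors as single reads of 51 bases. Their processing notes name mm9 and DESeq 1.32, while the sources used here do not give the aligner, the quantification or the strand setting. The deposited FPKM table names no unit. FPKM was inferred from its values, which keep no read counts, so no counting interval is given. A second deposited table holds the authors' own comparison (mean levels, log2 fold changes, test statistics and p-values) and was not used.

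Columns were assigned to groups by name. Of 22053 listed genes, 83 entries of 37 repeated identifiers were left out. The 12036 genes that reached 1 FPKM in 3 or more kidneys were fitted on log2(FPKM + 1) with limma 3.58.1 (R 4.3.3), with a mean-variance trend, no covariates and Benjamini-Hochberg adjustment over all genes tested. Other steps used Python 3.11.15, numpy 2.4.6, pandas 2.3.3 and matplotlib 3.10.9. The members, the gene lists and the rules for naming genes were chosen with earlier results of these data known. Named are all members, the 5 genes nearest to Car9 and, from each pH regulation list, genes among the largest changes called and the most abundant not called. Some genes that these rules name are not reported here. Promoter sequences and gene structure are from RefSeq and GENCODE on GRCm38, of another build than mm9, and were joined by symbol.

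Alternatives were quantile normalization, median centring, no trend, no filter, an FPKM of at least 1 in every kidney, a pseudocount of 0.1, a threshold of 0.01 and each kidney left out. The fit was also tested on simulated data of 11564 genes with the same group sizes. Changes were put only into genes above the median level, up and down in equal numbers. Of the 67, 67 and 66 genes with a simulated log2 change of 0.5, 1 and 2, it called 79.1%, 94.0% and 100%, with 8 unchanged genes called. These rates do not cover low genes such as Car8 and Car13, or data in which increases outnumber decreases.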

Additional observations from a re-analysis of the deposited data

Results flagged for a closer look

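The Car13 value of TC-8 stood apart from the other BPS-TA kidneys. TC-8 had 1.14 FPKM, against 2.11, 2.30 and 2.13 FPKM in TC-7, TC-11 and TC-12, and the gap to the nearest kidney took 0.837 of the whole range, above Dixon's critical value at the 95% level for 4 samples. This was 1 of 10 members examined, and chance flags about 1 in 20 groups. The WT kidneys, at 1.48, 1.06 and 1.23 FPKM, were too few for the same check.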

How the results depend on the processing

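Of 160 values of the 10 members under 16 alternatives, 131 kept direction and side of the threshold, 22 lost the call, 5 gained one and 2 changed sign. These counts include the fits on each pair of BPS-TA kidneys, which were not planned. The sign changes were those of Car12, at 0.0044 without WT-5 and 0.0022 without WT-6, where its range over left-out kidneys began at -0.060. Car9 and Car3 kept their calls throughout. With quantile normalization 0 members were lower, and of all genes 1416 were higher and 1724 lower (3425 and 790 on the deposited scale), with 8 pH regulation genes higher. With median centring 3 members were higher and 3 lower, of all genes 1515 were higher and 2480 lower, and of the pH regulation genes 7 and 8. The members called lower numbered 0 without the trend, without the filter and at a threshold of 0.01, with 1 lower at an unadjusted p under 0.05 in each. Over left-out kidneys 5 to 7 members were higher and 0 to 1 lower, 2276 to 3301 genes were higher and 484 to 905 lower, and 8 to 16 pH regulation genes were higher and 2 to 5 lower. The lowest counts over all genes were those without WT-7 (2276 higher) and without WT-6 (484 lower), and the count of 5 pH regulation genes was that without TC-11. Chosen after the data were seen, a fit with TC-7 and TC-8 as the only BPS-TA kidneys gave 3 members higher, 1926 genes higher and 446 lower, and 8 pH regulation genes higher, and one with TC-11 and TC-12 gave 7 pH regulation genes lower. No paired analysis was possible because the numbers of the columns match no replicate number in the labels. The unknown read number and the few kidneys limit what can be said of members below 3 FPKM, such as Car8 and Car13.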

Other observations

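Atp4a, the gene of the catalytic subunit of the gastric proton-potassium pump and a member of the proton transporter list, divided the BPS-TA kidneys. It was chosen after its values were seen. It stood at 13.3 FPKM in TC-7, 14.9 in TC-8, 1.66 in TC-11 and 2.29 in TC-12. The WT kidneys had 17.7, 13.9 and 13.9 FPKM. TC-11 and TC-12 were far below the other 5 kidneys, and over all 4 BPS-TA kidneys the log2 fold change of -1.27 (standard error 0.639) did not pass the test (adjusted p = 0.156 from limma). With TC-11 and TC-12 as the only BPS-TA kidneys it was -2.44 (adjusted p = 2.91e-04), and with TC-7 and TC-8 it was -0.094 (adjusted p = 0.607). The difference between the pairs was not tested.

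Macrophage markers ran along the same division. All 10 tested markers rose in BPS-TA kidneys, and their summed level over the 11 listed was 119.4 FPKM in TC-7, 119.1 in TC-8, 159 in TC-11 and 188 in TC-12. In the WT kidneys it was 69.9, 61.6 and 62.8 FPKM. Among the members, Car2, Car4, Car13 and Car15 were higher and Car9 and Car14 lower in both TC-11 and TC-12 than in both TC-7 and TC-8. Car3, Car5b, Car8 and Car12 were not divided in this way. The share of all genes so divided was not counted, so the division cannot be called a trait of the members. The pairs were seen in the data and lay apart on the second principal component of all tested genes. The part of the macrophage markers in the members' values was not tested.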
